A study of Mus musculus with 16 samples.

Results

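Fraction 5, the gate that holds pro-memory cells, was compared with the whole light zone of the germinal centre across all genes measured. The comparison rests on 6 of the 16 RNA-seq libraries of the series, 3 sorted as Fraction 5 and 3 sorted as light zone (LZ), chosen by the names of their columns, and it describes every gene that reached 1 FPKM in 2 or more libraries. FPKM is a fragment count scaled to transcript length and to the mapped fragments of the library. All libraries came from one kind of mouse experiment. C57BL/6 donor B cells heterozygous for a Bcl6-YFP reporter knock-in and for the B1-8hi heavy chain knock-in, which binds the hapten NP, were transferred into wild-type CD45.1+ recipients that were immunised intraperitoneally with NP-CGG in alum. Spleens of 9 recipients were pooled on day 10, and RNA was made from 10000 to 20000 sorted cells. Every gate took CD45.2+ NP-binding CD138- IgG1+ cells, so all groups are antigen-binding, class-switched donor cells with one fixed heavy chain and 1 reporter allele at Bcl6. LZ cells were further CD38- CD86hi CXCR4lo. Fraction 5 cells were CD38+ GL7- Bcl6-YFPhi Efnb1hi. Fraction 3, set against LZ below, is the part of the LZ gate that is Bcl6-YFPhi CD69lo, and Fraction 2 is its Bcl6-YFPhi CD69hi part. Nothing in the labels ties a library to its own pool of animals, so the p-values reflect library-to-library spread that could be technical.

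In the germinal centre, B cells divide and mutate their antibody genes in the dark zone and compete for antigen and T cell help in the light zone. A light zone cell that receives help switches on Myc and grows before it returns to the dark zone, while a few cells leave the reaction as memory B cells, which are small, resting and recirculate. Bcl6 holds cells in the germinal centre program, and CD38 is low on mouse germinal centre B cells and high on naive and memory B cells.

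Transcripts of the sort markers were checked first. Cd38 was at 48.4, 49.2 and 48.2 FPKM in Fraction 5 and at 10.4, 12.8 and 9.39 FPKM in LZ, a 4.47-fold difference in means (log2 change 2.07 ± 0.09 (SE), adjusted p = 4.03e-08), and since the gates were drawn on CD38 this is a check and not a finding. Bcl6, the master repressor of the germinal centre state, was at 191, 183 and 194 FPKM in Fraction 5 and at 162, 155 and 177 FPKM in LZ. The groups did not overlap for Bcl6, but the difference did not pass the test (log2 change 0.20 ± 0.10 (SE), adjusted p = 0.129). Efnb1, the ephrin used to draw Fraction 5, was at 67.2, 57.9 and 67.5 FPKM against 54.7, 44.9 and 57.1 FPKM in LZ and passed narrowly (log2 change 0.30 ± 0.10 (SE), adjusted p = 0.0411), with adjusted p = 0.177 without LZ library 2, 0.0539 without LZ library 1 and 0.129 and 0.126 without Fraction 5 libraries 1 and 3. The protein of Cd86 is high in the LZ gate by design and was not gated in Fraction 5. Its transcript was at 113, 99.8 and 123 FPKM in Fraction 5 and at 87.5, 87.7 and 97.2 FPKM in LZ. It was higher in Fraction 5 (log2 change 0.30 ± 0.09 (SE), adjusted p = 0.0281). The call was lost in 4 of 6 fits without 1 library (adjusted p = 0.0769 to 0.119). Those fits left out LZ library 1 or 2 or Fraction 5 library 1 or 3. Cxcr4, whose protein is low in the LZ gate by design, was at 66.6, 77.5 and 69.4 FPKM in Fraction 5 and at 45.3, 49.1 and 49.7 FPKM in LZ. Here and below, a value in brackets after a gene is its log2 change in Fraction 5 against LZ. The pan-leukocyte gene Ptprc (0.18, adjusted p = 0.0863) and the activation marker Cd69 (0.26, adjusted p = 0.0994) did not pass. The plasma cell marker Sdc1 was at or below 0.234 FPKM in all 6 libraries.

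FPKM values summed to 446599 to 468349 in Fraction 5 and to 483565 to 488339 in LZ, so each Fraction 5 sum was below each LZ sum. FPKM is already scaled to mapped fragments, so these sums do not measure library size. The number of reads behind them is unknown. Correlations of log2(FPKM + 1) over the genes tested were 0.951 to 0.960 within Fraction 5, 0.958 to 0.962 within LZ and 0.939 to 0.950 between the groups. B cell genes were abundant in all 6 libraries, with Cd79a at 1359, 1219 and 1340.1 FPKM in Fraction 5 and 1019, 857 and 969.6 FPKM in LZ. The defining T cell gene Cd3e was listed at 0 in all 6 libraries, and the T cell list summed to 173 to 175 FPKM in Fraction 5 against 112 to 125 FPKM in LZ through Cd2, which B cells also express. Of the macrophage genes, Csf1r stayed at or below 0.102 FPKM, and the myeloid list summed to 25.2 to 42.5 FPKM in Fraction 5 and 22.1 to 47.8 FPKM in LZ. The erythroid and platelet list summed to 87.1 to 220 FPKM in Fraction 5 and 80.1 to 198 FPKM in LZ. Dendritic cell markers summed to 28.4 to 43.4 FPKM in Fraction 5 and 32.3 to 41.5 FPKM in LZ. For NK cell markers the sums were 1.14 to 1.64 FPKM and 0.939 to 1.09 FPKM. Naive and marginal zone B cell markers summed to 831 to 949.6 FPKM in Fraction 5 and 702 to 756 FPKM in LZ; 30% of the 10 were called, near the 31.4% of all genes tested, and leaving out 1 library gave 0 to 2 higher and 0 to 1 lower. Fcer2a of this list, which encodes CD23, was at 418, 369.8 and 484 FPKM and 357, 344 and 357 FPKM (adjusted p = 0.046), and its call was lost in 5 of the 6 fits without 1 library (0.0835 to 0.2), all but that without Fraction 5 library 2. The stromal list summed to 36.5 to 44.2 FPKM and 23.9 to 26.8 FPKM, through Pecam1, with Col1a1 and Clu listed at 0. What part these lists have in the results was not tested.

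Pro-memory cells differed from the light zone in 3536 of 11266 genes (31.4% of the genes tested) by limma with Benjamini-Hochberg adjustment at 0.05. Of these, 2369 genes (21% of those tested) were lower in Fraction 5 and 1167 (10.4%) were higher. These shares are the background for each count of list members below. The larger changes leaned further towards loss, with 208 genes lower by more than 2-fold and 45 higher by more than 2-fold. The split depended on scaling: quantile normalization gave 2022 higher and 1845 lower, and median-ratio scaling 1756 higher and 2103 lower. Libraries of the groups did not overlap for 44.7% of the genes tested (18.3% higher and 26.4% lower in Fraction 5), the background for each statement below that groups do not overlap. Across the 6 fits that each left out 1 library, 617 genes were higher and 1640 lower in every one. FPKM is relative to the RNA in each library, so less RNA per cell and fewer cells that express a gene cannot be told apart in these pooled samples.

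**Figure D1:**
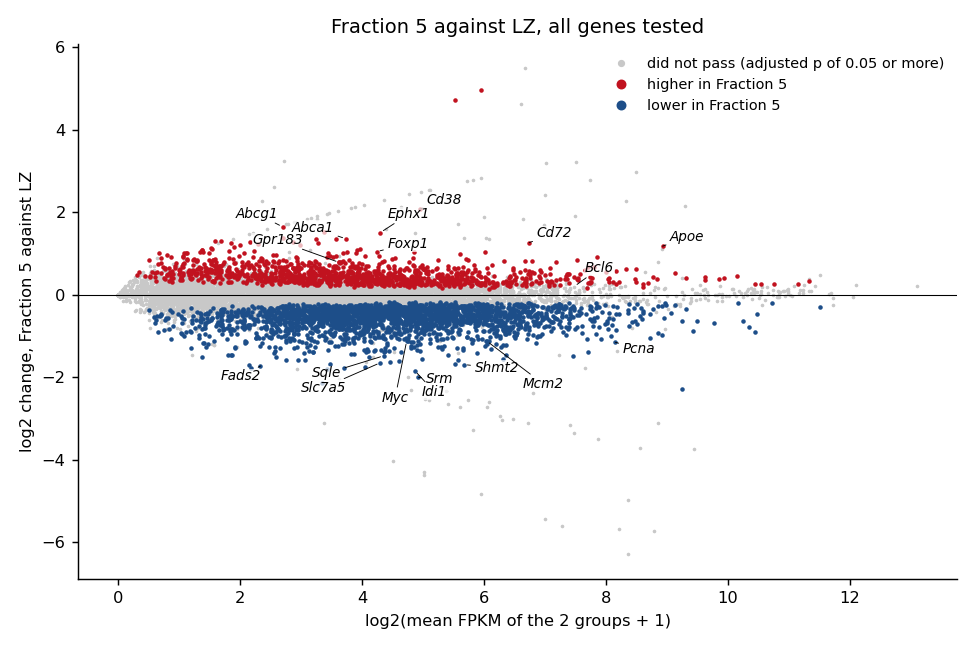
Each point is 1 of the 11266 genes tested; the x axis is log2 of the mean FPKM of Fraction 5 and LZ plus 1, and the y axis is the log2 change in Fraction 5 against LZ. Red points (1167) passed as higher in Fraction 5, blue points (2369) as lower and grey points did not pass; Cd38 and the sterol exporters Abcg1 and Abca1 stand among the largest rises and Srm, Idi1 and Shmt2 among the largest falls.

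After Cd38, the largest rise among genes whose groups did not overlap and whose higher group averaged 5 FPKM or more was Abcg1, an exporter of cellular sterol. It was at 9.12, 10.6 and 6.63 FPKM in Fraction 5 and at 1.73, 3.3 and 1.48 FPKM in LZ (log2 change 1.65 ± 0.25 (SE), adjusted p = 0.000262). The microsomal epoxide hydrolase Ephx1 rose from 10.5, 8.76 and 8.46 FPKM in LZ to 29.1, 29.8 and 25.5 FPKM in Fraction 5. Fcgrt, the neonatal Fc receptor, rose from 4.11, 4.48 and 4.34 FPKM to 13.7, 12.3 and 11.8 FPKM, and the co-stimulatory receptor gene Tnfrsf18, which encodes GITR, from 1.65, 1.04 and 2.19 FPKM to 5.66, 5.3 and 5.04 FPKM. Separation of the libraries was part of how these genes were chosen. The other large rises were the C-type lectin gene Clec2i, Hsd17b11, the adaptor Grap2, Abca1, Calcoco1, the B cell co-receptor Cd72 and B3gnt8, with log2 changes from 1.26 to 1.52.

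The 12 largest falls were chosen the same way. Srm, the spermidine synthase of the polyamine pathway, was at 9.56, 11.8 and 11.7 FPKM in Fraction 5 and at 60.0, 43.5 and 39.6 FPKM in LZ, 4.33-fold lower (log2 change -2.00 ± 0.17 (SE), adjusted p = 4.21e-06). The isoprenoid enzyme Idi1, the sterol-regulated membrane protein gene Tmem97, the serine hydroxymethyltransferases Shmt1 and Shmt2, the pyrophosphatase Ppa1 and the fatty acid desaturase Fads2 fell, with log2 changes of -1.84, -1.81, -1.78, -1.69, -1.76 and -1.72. Tnfrsf8, which encodes CD30, fell from 6.18, 5.74 and 6.13 FPKM to 0.892, 0.992 and 1.24 FPKM. The remaining falls were AI848285 (-2.13), the lysine methyltransferase Smyd2 (-1.71), the protease inhibitor Slpi (-1.68) and the small nucleolar RNA Snord96a. Snord96a had the lowest value of all at -2.28, but its LZ libraries spread over 1269, 1585 and 252 FPKM and its adjusted p of 0.0226 became 0.0844 and 0.0952 without LZ libraries 1 and 2 and 0.0932 without Fraction 5 library 3. Among all genes called, Mir199a-1 and Mir3060, singled out after their values were seen, had the highest log2 changes (4.97 and 4.72), yet each was listed at 0 in every LZ library and in 1 Fraction 5 library.

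Genes of the memory B cell list were partly raised in Fraction 5. Of 28 members, 12 rose (10.4% of all genes did) and 3 fell, and the median log2 change was 0.30 against -0.02 over all genes tested. The 12 include Cd38, on which the gates were drawn; without it 11 of 27 rose, with a median of 0.30. Itgb7, an integrin chain of recirculating lymphocytes, was at 28.4, 28.9 and 29.8 FPKM in Fraction 5 and at 14.9, 15 and 15.6 FPKM in LZ (log2 change 0.89 ± 0.12 (SE), adjusted p = 0.000114). Ccr6, the receptor for the chemokine CCL20 and a marker of memory precursors, was at 22.5, 29.1 and 21.6 FPKM in Fraction 5 and at 11.8, 13.6 and 11.4 FPKM in LZ, 1.99-fold higher (log2 change 0.93 ± 0.13 (SE), adjusted p = 0.000116). Gpr183, the oxysterol receptor EBI2 that draws B cells to the outer follicle, was at 13.7, 15.1 and 14.9 FPKM against 10.1, 6.92 and 7.41 FPKM (log2 change 0.78 ± 0.13 (SE), adjusted p = 0.000617). All 3 were separated without overlap, and the Fraction 5 means were 1.91, 1.99 and 1.79 times the LZ means for Itgb7, Ccr6 and Gpr183.

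Further risers of this list were the splicing regulator Zfp318 (0.90), the chemokine receptor Cxcr3 (1.05), which stayed at 2.38, 2.02 and 3.11 FPKM, and the transcription factor Bach2 (0.44). The complement regulator Cd55, singled out after its values were seen, rose from 3.32, 2.74 and 2.57 FPKM to 5.04, 7.13 and 7.93 FPKM. Hhex, a transcription factor required for memory B cells, was at 15.6, 18.6 and 22.7 FPKM in Fraction 5 and 12.7, 13.3 and 13.5 FPKM in LZ; no libraries overlapped, but the difference did not pass (log2 change 0.48 ± 0.20 (SE), adjusted p = 0.0851). Its partner gene Tle3 (0.18, adjusted p = 0.294) and Ski (0.17, adjusted p = 0.49) did not pass either, and Ski had at most 1.07 FPKM in these 6 libraries. Bhlhe41 and Zbtb32 were among the 3 members that fell. Bhlhe41 was at 0.159, 0 and 0.304 FPKM in Fraction 5 and at 2.18, 1.18 and 0.285 FPKM in LZ, and Zbtb32 at 1.64, 0.527 and 0.943 FPKM and 2.49, 1.87 and 2.65 FPKM; both are transcriptional repressors, named here after their values were seen. All 3 falls depended on the libraries used: each lost its call without LZ library 1 and without Fraction 5 library 2, and 1 kept it without LZ library 2 or without Fraction 5 library 1.

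**Figure D2:**
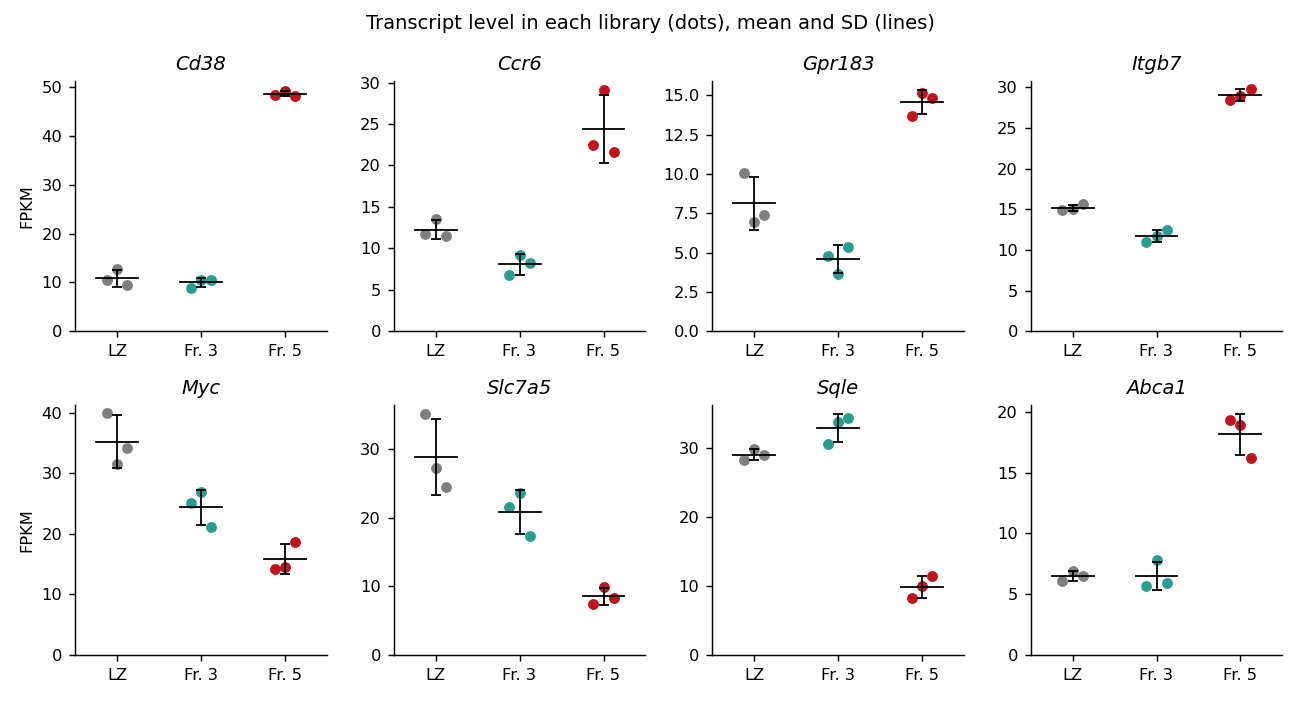
Each panel plots FPKM on a linear axis from 0 for 1 gene in the 3 LZ, 3 Fraction 3 and 3 Fraction 5 libraries (dots), with the mean and SD (lines). Cd38, Ccr6, Gpr183, Itgb7 and Abca1 sit highest in Fraction 5, and Myc, Slc7a5 and Sqle lowest, with no Fraction 5 library inside the range of LZ in any of the 8 panels.

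The same genes in the memory gates of the series place these levels. Ccr6 averaged 97.8 FPKM in Fraction 6 (CD38+ GL7- Bcl6-YFPlo Efnb1hi, 2 libraries) and 148 FPKM in Fraction 7 (Bcl6-YFPlo Efnb1lo, 3 libraries), beside 24.4 FPKM in Fraction 5. Hhex averaged 51.2 and 76.4 FPKM there beside 18.9 FPKM in Fraction 5, and the survival gene Bcl2 8.22 and 18.8 FPKM beside 2.65 FPKM. S1pr1, the receptor that lets lymphocytes exit tissues, averaged 37.3 and 104 FPKM beside 4.17 FPKM. These differences between memory gates and Fraction 5 were not tested here.

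Genes linked to quiescence and egress rose as a group. Of 25 tested, 16 rose and 1 fell, with a median log2 change of 0.42. Sesn1, a stress-induced inhibitor of growth signalling, was at 17.4, 17.3 and 15.6 FPKM in Fraction 5 and at 8.59, 8.51 and 9.36 FPKM in LZ (log2 change 0.86 ± 0.07 (SE), adjusted p = 2.81e-06). The forkhead transcription factor Foxp1 was at 23.1, 24.2 and 25.9 FPKM against 10.6, 10.9 and 12.4 FPKM (log2 change 1.05 ± 0.10 (SE), adjusted p = 6.28e-06). Fraction 5 means were 1.9 and 2.16 times those of LZ, with narrow spread. Ypel3 (0.86) and the antiproliferative gene Btg2 (0.67) followed, and Cdkn1b, which encodes the cyclin-dependent kinase inhibitor p27 and was singled out after its values were seen, rose from 10.1, 8.37 and 8.11 FPKM to 18.3, 20.7 and 18 FPKM (log2 change 1.02 ± 0.13 (SE), adjusted p = 6.27e-05). Klf2, the regulator of lymphocyte trafficking, was at 36.8, 29 and 40.0 FPKM against 26.9, 18.9 and 24.4 FPKM and passed (log2 change 0.57 ± 0.17 (SE), adjusted p = 0.0183), but not without LZ library 2 (adjusted p = 0.0833), Fraction 5 library 1 (0.0618) or Fraction 5 library 3 (0.075). S1pr1 was at 4.08, 3.1 and 5.32 FPKM in Fraction 5 and 3.92, 2.83 and 3.32 FPKM in LZ, overlapping groups that did not pass (log2 change 0.23 ± 0.17 (SE), adjusted p = 0.34).

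Of 35 guidance and migration receptors tested, 17 rose (10.4% of all genes did) and 2 fell (21% did), with a median log2 change of 0.28. Itgb7, Ccr6, Gpr183 and Cxcr3 were among the 17. Without LZ library 1, 11 rose, and 15 of 33 rose when the gate genes Cxcr4 and Efnb1 were left out. The follicle-homing receptor Cxcr5 was at 131, 142 and 127 FPKM and 119, 113 and 119 FPKM (adjusted p = 0.13), and the germinal centre confinement receptor S1pr2 at 153, 148 and 153 FPKM and 140.2, 129 and 150.2 FPKM (adjusted p = 0.371). The groups did not overlap for Cxcr5 but did for S1pr2, and neither gene passed.

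Myc, the growth transcription factor that T cell help switches on in the light zone, was lower in Fraction 5. It was at 14.2, 14.6 and 18.7 FPKM in Fraction 5 and at 40.0, 31.6 and 34.2 FPKM in LZ, 2.23-fold lower with no overlap (log2 change -1.11 ± 0.12 (SE), adjusted p = 1.95e-05). Of 25 tested genes of the Myc network and Myc-associated list, 17 fell (21% of all genes did) and 1 rose, with a median log2 change of -0.80. The lactate dehydrogenase gene Ldha (-1.06), the mitochondrial chaperone gene Hspd1 (-1.45), Srm (-2.00) and the arginine methyltransferase gene Prmt1 (-0.90) had the smallest adjusted p-values of the list. The 1 riser was Mxd4, an antagonist of Myc at shared sites, noted after its values were seen, at 103, 106 and 95.6 FPKM in Fraction 5 and 61.8, 49.7 and 60.6 FPKM in LZ (log2 change 0.82 ± 0.12 (SE), adjusted p = 0.000182).

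The machinery that builds ribosomes was almost uniformly lower. Of 39 ribosome biogenesis genes tested, 38 fell and 1, Polr1c, did not pass, with a median log2 change of -0.94. Gar1, a core protein of the particles that pseudouridylate RNA, was at 15.2, 14.7 and 15.3 FPKM in Fraction 5 and at 45.4, 46.5 and 46.7 FPKM in LZ, 3.06-fold lower (log2 change -1.55 ± 0.07 (SE), adjusted p = 4.03e-08). Bop1 (-0.87), Wdr75 (-1.07) and Nop56 (-1.12), all assembly factors of the nucleolus, fell too. The E-box CACGTG is a palindrome that Myc can bind. It was found for 6 of the 33 genes of this list with a promoter in the RefSeq table (18.2%). The share was 8.09% of all genes and 12.1% of the genes tested. This is a description, with no test. In contrast, of 74 cytosolic ribosomal protein genes, which make the ribosome itself, 66 did not pass and the median log2 change was 0.04. The 5 that fell were Rps2, Rpl30, Rpl14, Rpl34 and Rpl10, and the 3 that rose were Rpl37a, Rpl17 and Rpl13a. Quantile normalization gave 13 higher and 5 lower and median-ratio scaling 15 and 4, while each of the 3 rises lost its call without LZ library 1, without LZ library 2 and without Fraction 5 library 2, and 1 passed without Fraction 5 library 1 or library 3. Without LZ library 1, 3 of the 5 falls passed. Many ribosomal protein genes have near-identical pseudogenes, so the way reads were divided among copies makes single genes of this list uncertain.

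Enzymes that charge transfer RNAs fell in step, 19 of 20 with Qars the exception, at a median log2 change of -0.70. Iars was at 13.8, 14.7 and 14.7 FPKM in Fraction 5 and 28.5, 27.3 and 23.5 FPKM in LZ (log2 change -0.83 ± 0.07 (SE), adjusted p = 4.21e-06). The supply routes for amino acids were lower at selected genes. Slc7a5, the light chain of the large neutral amino acid transporter, was at 7.35, 9.85 and 8.33 FPKM in Fraction 5 and at 35, 27.2 and 24.4 FPKM in LZ, 3.39-fold lower (log2 change -1.64 ± 0.14 (SE), adjusted p = 4.21e-06). Its heavy chain partner Slc3a2 fell from 35, 31.7 and 34.7 FPKM to 26.5, 23.5 and 26.1 FPKM (log2 change -0.40 ± 0.08 (SE), adjusted p = 0.00166), and had adjusted p = 0.0688 after quantile normalization. Tfrc, the transferrin receptor that brings in iron, was at 6.67, 8.24 and 7.03 FPKM against 16.6, 17.9 and 16.2 FPKM (log2 change -1.11 ± 0.13 (SE), adjusted p = 3.74e-05). In the whole uptake list 7 of 15 genes fell and 1, the mitochondrial iron carrier Slc25a37, rose. The median of that list was -0.11 and turned to 0.04 after quantile normalization.

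Serine and one-carbon metabolism, which feeds purine and thymidylate synthesis, was lower at 18 of 21 genes, with a median log2 change of -0.90. Along the pathway, the first enzyme of serine synthesis Phgdh was at 27.1, 35.8 and 31.7 FPKM in Fraction 5 and 92.9, 85.8 and 75.1 FPKM in LZ (log2 change -1.40 ± 0.10 (SE), adjusted p = 2.36e-06). The mitochondrial serine hydroxymethyltransferase Shmt2 was at 18.9, 27.1 and 23.7 FPKM against 80.7, 73.7 and 74.7 FPKM (log2 change -1.69 ± 0.12 (SE), adjusted p = 2.31e-06), and its cytosolic counterpart Shmt1 at 3.84, 6.17 and 4.7 FPKM against 20.6, 18.8 and 17.6 FPKM. Group means were lower by 3.29-fold for Shmt2 and 3.88-fold for Shmt1, without overlap. The folate enzymes Mthfd1 (-1.36) and Mthfd2 (-1.26), the glycine cleavage protein Gcsh (-1.58) and the purine synthesis enzymes Gart (-1.36) and Atic (-1.24) also fell. Psph and Tyms were among the 3 that did not pass, with log2 changes of -0.12 and -0.36; Psph is the last enzyme of serine synthesis.

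Energy metabolism and protein turnover were lower by smaller factors. Of 23 glycolysis genes 13 fell (median log2 -0.52), including Pgk1 at 96.2, 94.3 and 94.6 FPKM in Fraction 5 and 164, 162 and 159.7 FPKM in LZ. Of 68 oxidative phosphorylation genes 53 fell (median -0.46), led by the ATP synthase gene Atp5g1 (-0.93) and the complex I gene Ndufv1 (-0.73). Of 37 proteasome genes 35 fell (median -0.56), among them the regulatory subunit gene Psmd1 (-0.84). Quantile normalization left 36 oxidative phosphorylation genes lower.

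Genes of cholesterol synthesis were lower along nearly the whole pathway. Of 24 tested, 21 fell (21% of all genes did), and Ebp, Pmvk and Tm7sf2 did not pass, with a median log2 change of -0.90. These genes are known to be driven together by the transcription factor SREBP2, which is active when membrane sterol is scarce. At the head of the pathway, the HMG-CoA synthase Hmgcs1 was at 8.06, 10.5 and 10.6 FPKM in Fraction 5 and at 19.9, 22.9 and 20.6 FPKM in LZ (log2 change -1.05 ± 0.13 (SE), adjusted p = 5.02e-05). Further on, the isomerase Idi1 was at 9.27, 13 and 13.1 FPKM against 40.0, 49.6 and 43.7 FPKM (3.77-fold lower, log2 change -1.84 ± 0.14 (SE), adjusted p = 2.81e-06).

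Sqle, the squalene epoxidase, was at 8.27, 9.98 and 11.4 FPKM in Fraction 5 and at 28.3, 29.9 and 29.1 FPKM in LZ (log2 change -1.48 ± 0.09 (SE), adjusted p = 1.12e-06). The prenyl transferase gene Fdps (-1.57), the squalene synthase gene Fdft1 (-1.21), the lanosterol synthase gene Lss (-1.28) and the demethylase gene Cyp51 (-1.39) fell as well. Insig1, the feedback protein that SREBP2 itself induces, fell by 1.37 on the log2 scale and Srebf2, the gene of the factor, fell by 0.42. Mvk, Nsdhl, Hsd17b7 and Dhcr7 were the weakest calls; their adjusted p-values of 0.0458, 0.0397, 0.0264 and 0.0144 rose to 0.2, 0.134, 0.0757 and 0.0687 without LZ library 1 and to 0.139, 0.168, 0.109 and 0.0623 without Fraction 5 library 1. The first 3 of these also lost the call without Fraction 5 library 3 (0.127, 0.0648 and 0.0903), Mvk without LZ library 2 (0.0505), and Nsdhl and Hsd17b7 without LZ library 3 (0.0783 and 0.065).

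The promoter of Hmgcs1 is printed because Hmgcs1 was the 1 of 17 sterol list genes with an exact sterol response motif, TCACCCCAC, on either strand of a promoter. It spans the 250 bases before the annotated start (chr13:119690101-119690350, GRCm38.p6, plus strand, from RefSeq), with the motif in capitals 137 bases before the start.
Hmgcs1: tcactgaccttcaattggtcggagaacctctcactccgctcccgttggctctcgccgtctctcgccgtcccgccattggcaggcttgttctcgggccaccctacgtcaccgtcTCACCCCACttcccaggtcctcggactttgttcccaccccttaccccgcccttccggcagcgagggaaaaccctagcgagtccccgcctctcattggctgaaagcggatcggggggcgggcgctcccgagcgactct
Promoters were taken from 250 bases before to 50 after the start. The motif was present for 5.88% of the sterol list genes with a promoter. It was present for 0.614% of the 27025 genes with a promoter in the table and 0.658% of the genes tested. A match is a description of letters, and its absence for the other 16 genes says nothing of the factor.

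Genes that move cholesterol out of cells went the other way. Of 13 genes of the efflux and LXR list tested, 7 rose and 1 fell, with a median log2 change of 0.41. LXR is a nuclear receptor that senses oxysterols and induces sterol exporters. Abca1, which loads cholesterol onto apolipoproteins, was at 19.3, 18.9 and 16.2 FPKM in Fraction 5 and at 6.06, 6.88 and 6.45 FPKM in LZ, 2.81-fold higher (log2 change 1.36 ± 0.15 (SE), adjusted p = 1.96e-05). Apoe, an apolipoprotein that accepts exported cholesterol, was at 685, 615 and 722 FPKM against 315, 242 and 341 FPKM (log2 change 1.18 ± 0.16 (SE), adjusted p = 9.73e-05). Mylip, a ubiquitin ligase gene that LXR induces, was at 39.5, 38.6 and 35.1 FPKM against 21, 13.9 and 18.9 FPKM (log2 change 1.05 ± 0.14 (SE), adjusted p = 7.98e-05). Groups did not overlap for any of these 3 genes.

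The lysosomal cholesterol transporter Npc1 (0.64) and the lipid transfer protein gene Pltp (0.78) rose as well, and Abca7 rose with an adjusted p of 0.0123 that became 0.0578 without LZ library 2 and 0.0587 without Fraction 5 library 3. The HDL receptor gene Scarb1 was the 1 that fell (-0.78). Cyp27a1, a sterol hydroxylase outside the list that makes the LXR ligand 27-hydroxycholesterol, was singled out after its values were seen, at 21.8, 18.1 and 21.4 FPKM in Fraction 5 and 7.64, 8.78 and 10.3 FPKM in LZ (log2 change 1.12 ± 0.11 (SE), adjusted p = 1.10e-05). The receptor gene Nr1h2 itself was at 31, 31.6 and 37.7 FPKM and 35.1, 35 and 41.5 FPKM and did not pass (log2 change -0.15 ± 0.09 (SE), adjusted p = 0.241).

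**Figure D3:**
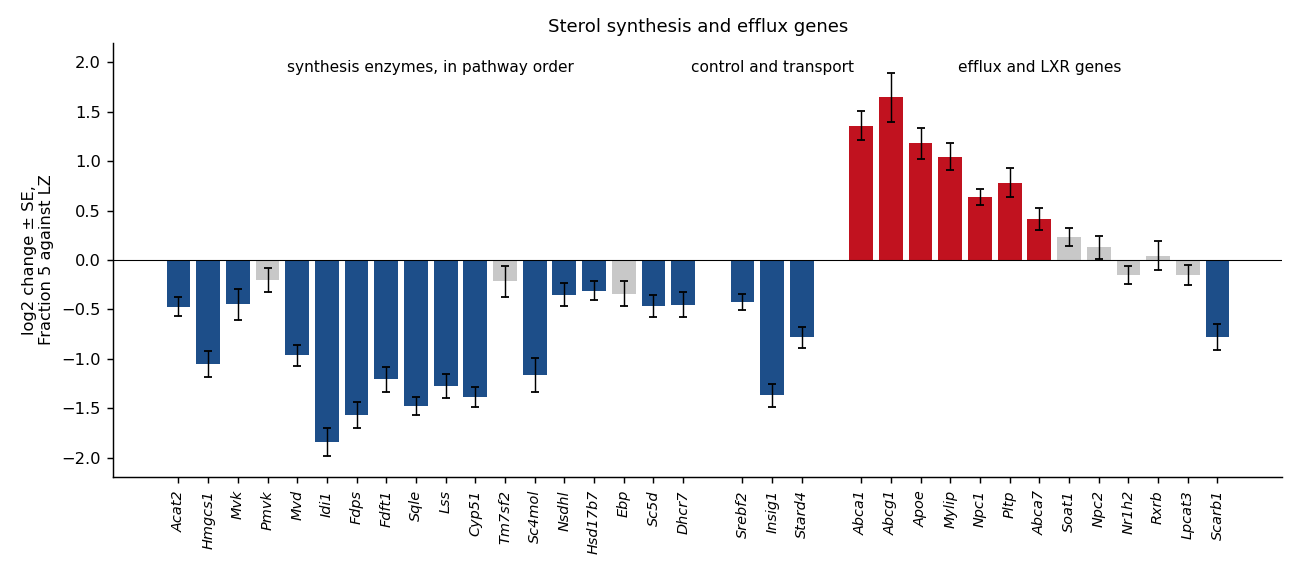
Bars give the log2 change in Fraction 5 against LZ for synthesis enzymes in pathway order, for control and transport genes and for efflux and LXR genes; error bars are the SE of the fit, blue bars passed as lower, red bars as higher and grey bars did not pass. Synthesis bars point down, from -0.20 at Pmvk to -1.84 at Idi1, while 7 of the 13 efflux and LXR bars are red, up to 1.65 at Abcg1.

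Fatty acid synthesis genes were lower at 12 of 18, with a median log2 change of -0.36. Quantile normalization gave 9 lower, and leaving out 1 library gave 8 to 12. Fasn, the fatty acid synthase, was at 11.4, 12.7 and 12.9 FPKM in Fraction 5 and at 28.7, 25.8 and 26.7 FPKM in LZ (log2 change -1.07 ± 0.08 (SE), adjusted p = 2.36e-06). Fads2 and Fads1, the desaturases of polyunsaturated fatty acids, fell with log2 changes of -1.72 and -1.04. The stearoyl-CoA desaturases split: Scd1 rose from 107, 113 and 109 FPKM to 153, 174 and 146 FPKM and was the 1 riser of the list, while Scd2 fell (-0.43, adjusted p = 0.00902, 0.0542 after quantile normalization). The carboxylase gene Acaca did not pass (-0.23, adjusted p = 0.138).

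Genes of cell cycle entry and of DNA replication were lower in pro-memory cells. Of 25 G1 cyclins and CDK inhibitors tested, 15 fell and 3 rose, with a median log2 change of -0.49; the risers were Cdkn1b, the pocket protein gene Rbl2 (0.40) and E2f2 (0.26). The kinase gene Cdk4 was at 65.2, 80.7 and 74.7 FPKM in Fraction 5 and 139, 127 and 120.4 FPKM in LZ (log2 change -0.80 ± 0.09 (SE), adjusted p = 2.53e-05), and Ccne1, the cyclin of the G1 to S step, at 8.7, 9.52 and 9.55 FPKM against 19, 16.1 and 18.1 FPKM. Ccnd3, the cyclin that drives repeated division of germinal centre B cells, did not pass (log2 change -0.06 ± 0.07 (SE), adjusted p = 0.565), with 155, 169.9 and 157 FPKM and 181, 160.2 and 163 FPKM in overlapping groups.

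Of 50 replication genes, 45 fell, with a median log2 change of -0.89. The replication clamp gene Pcna was at 156, 203 and 171 FPKM in Fraction 5 and at 409, 388 and 376 FPKM in LZ, 2.21-fold lower (log2 change -1.15 ± 0.08 (SE), adjusted p = 2.31e-06). The helicase subunit gene Mcm2 was at 37, 44.2 and 40.6 FPKM against 95.2, 84.4 and 87.4 FPKM (log2 change -1.11 ± 0.08 (SE), adjusted p = 2.31e-06), and the DNA ligase gene Lig1 at 32.4, 37.8 and 35.3 FPKM against 75.1, 77.9 and 75.6 FPKM (log2 change -1.10 ± 0.07 (SE), adjusted p = 1.57e-06). Each was more than 2-fold lower in Fraction 5, without overlap.

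Replication promoters often carry sites for E2F factors. Of the 42 list genes with a promoter available, 15 (35.7%) held at least 1 of the 3 motifs TTTCGCGC, TTTGGCGC and TTTCCCGC on either strand. The share was 2.12% of all 27025 genes and 4.37% of the 7902 genes tested that have a promoter in the table. The 3 promoters printed below are of the members with the largest falls that held a motif in the bases shown: Uhrf1, which maintains DNA methylation (-1.30, chr17:56304063-56304312), the helicase subunit gene Mcm5 (-1.27, chr8:75109259-75109508) and the origin recognition gene Orc1 (-1.15, chr4:108579204-108579453). Each is the 250 bases before the start on the plus strand of GRCm38.p6, from RefSeq, with the motifs in capitals. In Mcm5 the capitals hold TTTCGCGC and, on the other strand, TTTGGCGC, which overlap.
Uhrf1: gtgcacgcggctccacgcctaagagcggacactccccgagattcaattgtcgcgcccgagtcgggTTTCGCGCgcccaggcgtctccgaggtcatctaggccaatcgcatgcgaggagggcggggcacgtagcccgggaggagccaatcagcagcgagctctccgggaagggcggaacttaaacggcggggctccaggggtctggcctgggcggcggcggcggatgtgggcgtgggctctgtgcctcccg
Mcm5: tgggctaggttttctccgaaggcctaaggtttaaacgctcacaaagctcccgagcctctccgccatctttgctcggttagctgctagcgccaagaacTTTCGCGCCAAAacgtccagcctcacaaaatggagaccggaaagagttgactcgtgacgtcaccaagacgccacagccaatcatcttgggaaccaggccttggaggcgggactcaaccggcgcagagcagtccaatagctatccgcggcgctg
Orc1: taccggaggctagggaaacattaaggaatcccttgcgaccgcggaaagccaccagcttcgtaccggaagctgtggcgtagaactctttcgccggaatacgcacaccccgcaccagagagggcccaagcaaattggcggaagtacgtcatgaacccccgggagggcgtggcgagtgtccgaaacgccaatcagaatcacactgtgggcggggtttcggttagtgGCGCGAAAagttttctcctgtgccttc

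Mitotic genes fell less uniformly. Of 52 tested, 26 fell and 26 did not pass, at a median log2 change of -0.45; 15 fell after quantile normalization, 15 without Fraction 5 library 1 and 16 without Fraction 5 library 3. The transcription factor gene Mybl2 was at 13.5, 18.2 and 13.9 FPKM in Fraction 5 and 41.7, 38.5 and 35 FPKM in LZ (log2 change -1.29 ± 0.15 (SE), adjusted p = 2.88e-05), and the kinase gene Aurkb at 29.4, 38.9 and 32.8 FPKM against 58.2, 51.7 and 55.1 FPKM. The proliferation marker Mki67, noted after its values were seen, was at 65.9, 96.6 and 67.2 FPKM against 96.7, 120.5 and 104 FPKM and just missed the threshold (log2 change -0.50 ± 0.18 (SE), adjusted p = 0.0511). Fraction 5 library 2 was the highest of the Fraction 5 libraries for each of these 3 genes. For Mki67 that library reached the level of the lowest LZ library.

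Mitotic genes are repressed in resting cells through promoter elements with the core TTTGAA, usually beside CCAAT boxes. Of 44 list genes with a promoter, 30 (68.2%) held TTTGAA, against 20.2% of all genes and 14.4% of the genes tested. CCAAT was held by 33 of 44 (75%), against 41.1% and 43.9%. The promoter of the separase gene Espl1 (-0.67, chr15:102296043-102296292, GRCm38.p6, plus strand, RefSeq) is printed as the member with the largest fall that held TTTGAA in the bases shown, which is in capitals 27 bases before the start.
Espl1: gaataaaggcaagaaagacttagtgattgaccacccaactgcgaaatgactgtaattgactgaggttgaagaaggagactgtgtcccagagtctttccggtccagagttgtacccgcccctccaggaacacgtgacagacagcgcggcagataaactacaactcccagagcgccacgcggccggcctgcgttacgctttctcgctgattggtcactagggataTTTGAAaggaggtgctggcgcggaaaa

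For 8 lists described below the share of members called was near or under the 31.4% of all genes tested, so their counts are given as values of the members and not as results about the lists. These shares were 26.7% for germinal centre identity, 32.3% for light zone and early activation, 27.3% for CD40, NF-kB and T cell help, 26.5% for survival and for mTORC1, 28.2% for lysosome and autophagy, 23.1% for interferon-stimulated genes and 21.4% for the TGF-beta family pathway.

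Of the genes that mark germinal centre B cells, 22 of 30 did not pass, 4 rose and 4 fell, with a median log2 change of 0.11. The risers were the transcription factor genes Elk3 (0.43), Bach2 (0.44) and Pax5 (0.28) and the gate gene Efnb1; 2 of the 4 passed without Fraction 5 library 3, and quantile normalization gave 17 risers. Basp1 (-0.77), the chromatin enzyme gene Ezh2 (-0.42), Myb (-0.83) and Plxnb2 (-0.34) fell. In the dark zone and hypermutation list 11 of 18 genes fell and 2, the gate gene Cxcr4 and Foxo1, rose (median -0.47). The genes that fell include DNA repair enzymes that also serve replication, such as Lig1 and the uracil glycosylase Ung, which was at 7.05, 8.97 and 8.78 FPKM against 24.6, 24.1 and 20.9 FPKM (log2 change -1.39 ± 0.12 (SE), adjusted p = 4.09e-06). Foxo1 was no longer called without Fraction 5 library 2 (adjusted p = 0.0655).

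Of 31 genes in the light zone and early activation list, 6 rose and 4 fell, with a median log2 change of 0.08. Myc, Batf, Irf4 and Ccnd2 fell, and Batf, an AP-1 factor induced by T cell help, was at 18.8, 20.5 and 26.6 FPKM in Fraction 5 and 44, 37.3 and 37.1 FPKM in LZ (log2 change -0.83 ± 0.12 (SE), adjusted p = 0.00019). Il4i1 (0.51), Jun (0.72), Cd83 (0.32), Egr3 (0.79), Nr4a1 (0.64) and the gate gene Cd86 (0.30) rose. Of these 6, 3 passed without LZ library 2 and 3 without Fraction 5 library 3; Nr4a1, an immediate target of receptor signalling, had adjusted p = 0.0229 with all libraries and 0.073 and 0.105 in those fits.

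B cell receptor signalling genes moved up where they moved. Of 33 tested, 12 rose, 0 fell and 21 did not pass, with a median log2 change of 0.20. The share called was 36.4%. Over all genes tested 31.4% were called, 10.4% higher and 21% lower. Leaving out 1 library gave 9 to 12 risers, quantile normalization 26 and median-ratio scaling 20. Cd72, an inhibitory co-receptor, was at 156, 159 and 136 FPKM in Fraction 5 and at 66, 60.0 and 59.3 FPKM in LZ (log2 change 1.27 ± 0.15 (SE), adjusted p = 3.24e-05). Cd22, a second inhibitory co-receptor, was at 516, 493 and 504 FPKM against 373, 367 and 374 FPKM (log2 change 0.44 ± 0.06 (SE), adjusted p = 0.000141). The adaptors Bank1 (0.55) and Sh3bp2 (0.44) and, noted after their values were seen, the receptor chains Cd79a (0.46) and Cd79b (0.40) rose by less. Ms4a1, which encodes CD20, did not pass (0.11, adjusted p = 0.373).

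Antigen presentation by MHC class II was higher at 13 of 22 genes, with the other 9 not passing and a median log2 change of 0.29; without the gate gene Cd86 it was 12 of 21. The clearest were H2-Ob and H2-Oa, the chains of the H2-O molecule that restrains peptide loading in B cells. H2-Ob was at 400.2, 373 and 399 FPKM in Fraction 5 and at 250.2, 251 and 251 FPKM in LZ (log2 change 0.64 ± 0.06 (SE), adjusted p = 7.95e-06), and H2-Oa at 259, 253 and 253 FPKM against 165, 161 and 149 FPKM (log2 change 0.69 ± 0.07 (SE), adjusted p = 1.12e-05). Ciita, the transactivator of the class II genes, rose by 0.38 on the log2 scale and the ubiquitin ligase gene March1 by 0.61. Of 39 lysosome and autophagy genes 11 rose, among them the lysosomal enzymes Hexa (0.63) and Ctsd (0.43) and the channel gene Mcoln1 (0.66), and 28 did not pass; 23 rose after quantile normalization and 17 after median-ratio scaling.

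Of 33 genes of CD40, NF-kB and T cell help, 8 rose and 1 fell, at a median of 0.04; 5 rose without Fraction 5 library 3, and quantile normalization gave 13. Besides Tnfrsf18, the ligands of the receptor PD-1 rose, Cd274 from 4.2, 4.09 and 3.99 FPKM to 6.05, 7.3 and 7.27 FPKM (log2 change 0.62 ± 0.13 (SE), adjusted p = 0.00208) and Pdcd1lg2 from 4.45, 3.64 and 3.89 FPKM to 7.72, 5.81 and 6.99 FPKM (log2 change 0.65 ± 0.14 (SE), adjusted p = 0.00331). The 1 that fell was the chemokine gene Ccl22, noted after its values were seen, at 0.681, 0.221 and 0.0461 FPKM in Fraction 5 and 1.09, 3.11 and 2.59 FPKM in LZ.

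Of 34 survival and apoptosis genes tested, 3 rose and 6 fell, with a median log2 change of -0.06 that became 0.03 after quantile normalization. Mcl1, a protein that germinal centre and memory B cells need to survive, was at 207, 199 and 205 FPKM in Fraction 5 and 159.7, 144 and 148 FPKM in LZ (log2 change 0.44 ± 0.09 (SE), adjusted p = 0.00199); Bcl2l2 (0.56) and Casp9 (0.29) were the other risers, and Casp9 lost its call without LZ library 2 (adjusted p = 0.121) or 3 (0.0544) and without Fraction 5 library 2 (0.0517) or 3 (0.0938). Bcl2 was at 2.81, 2.48 and 2.66 FPKM against 2.24, 2.02 and 1.02 FPKM, without overlap, and did not pass (log2 change 0.43 ± 0.20 (SE), adjusted p = 0.128). The pro-apoptotic genes Bax (-0.44), Bak1 (-0.29) and Fadd (-0.28) and the anti-apoptotic Birc5 (-0.60, also in the mitosis list), Bcl2a1d (-0.34) and Bcl2l1 (-0.50) fell. The number of members lower was 1 after quantile normalization, 1 without Fraction 5 library 1, and 3 without LZ library 1 or without LZ library 3. The receptor for the survival factor BAFF, Tnfrsf13c, did not pass (-0.14, adjusted p = 0.247).

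Part of the secretory apparatus was lower. In the plasma cell and secretory list 11 of 26 genes fell and 14 did not pass, with a median log2 change of -0.34. Quantile normalization gave 9 lower and 3 higher, with a median of -0.17. In the main fit the 1 riser was 2010001M09Rik (also known as Mzb1). The falls were mostly endoplasmic reticulum chaperones such as Hsp90b1, at 57.1, 67.9 and 64.9 FPKM in Fraction 5 and 120.3, 123 and 120.5 FPKM in LZ (log2 change -0.93 ± 0.10 (SE), adjusted p = 2.53e-05), and Hspa5, at 106, 135 and 115 FPKM against 228, 207 and 198 FPKM. Prdm1, the regulator that commits cells to the plasma cell fate, stayed under 1 FPKM in all 6 libraries (-0.40, adjusted p = 0.0838), and Xbp1 did not pass (-0.35, adjusted p = 0.313). The rise of 2010001M09Rik (adjusted p = 0.0152) was not called without LZ library 1 (0.0524), LZ library 2 (0.0674) or Fraction 5 library 3 (0.0527).

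Genes of the mTORC1 growth pathway mostly did not pass, 25 of 34, while 5 rose and 4 fell, with a median log2 change of -0.05 that was 0.02 after quantile normalization and 0.01 after median-ratio scaling. The kinase gene Mtor itself was at 6.77, 7.48 and 7.13 FPKM in Fraction 5 and 7.62, 7.48 and 6.26 FPKM in LZ (log2 change 0.00 ± 0.11 (SE), adjusted p = 0.984). The risers were Gatsl3 (1.01), Sesn1 (0.86), Ddit4 (0.54), Sesn3 (0.35) and the lysosomal amino acid sensor Slc38a9 (0.33). Sesn3 lost its call in 5 of the 6 fits without 1 library (adjusted p = 0.0778 to 0.131), all but that without Fraction 5 library 3, and Slc38a9 lost it without LZ library 1 (0.0636) or Fraction 5 library 1 (0.0607). Rptor (-0.39), a subunit of the complex, Seh1l (-0.49), Rraga (-0.28) and Hbxip (-0.31) fell. Without Fraction 5 library 1, 3 of the 5 rises and 2 of the 4 falls passed, and 2 falls passed without LZ library 1 or after quantile normalization.

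Of 26 interferon-stimulated genes 5 rose and 1, Bst2, fell; the viral RNA sensor gene Ddx58 was at 3.81, 4.35 and 3.12 FPKM in Fraction 5 and 1.63, 1.73 and 1.44 FPKM in LZ (log2 change 0.87 ± 0.10 (SE), adjusted p = 4.56e-05), and 3 rose without LZ library 3 or without Fraction 5 library 1. Of 14 genes of the TGF-beta family pathway 2 rose, the receptors Tgfbr2 (0.53) and Acvr1b (0.58), and 1, Id3, fell (-0.40, adjusted p = 0.0499, and 0.111 to 0.174 without LZ library 1 or 3 or Fraction 5 library 1 or 2).

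**Figure D4:**
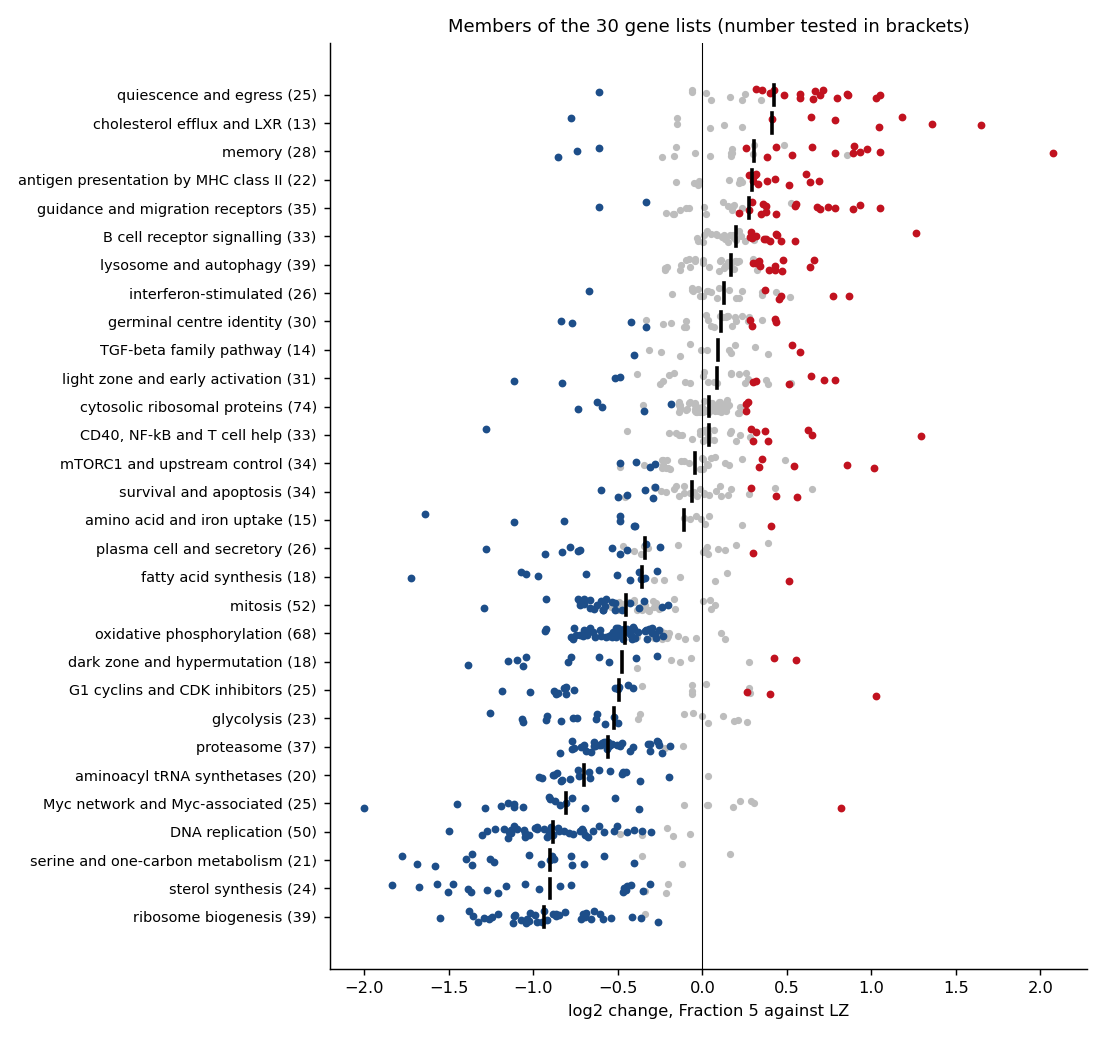
Each row is 1 of 30 gene lists, sorted by median, with the number of members tested in brackets; each point is a member's log2 change in Fraction 5 against LZ (red passed as higher, blue as lower, grey did not pass) and the black bar is the list's median. Medians run from -0.94 for ribosome biogenesis and -0.90 for sterol synthesis up to 0.42 for quiescence and egress, and cytosolic ribosomal proteins cluster near 0.

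Fraction 3, the Bcl6-YFPhi CD69lo part of the light zone gate, was set against LZ in the same fit. Because LZ also holds Fraction 3 cells, a difference between them is diluted by design. The comparison therefore cannot show how far the results depend on taking the whole light zone as reference. Fraction 3 differed from LZ in 14 of 11266 genes (0.124%), 1 higher (0.00888%) and 13 lower (0.115%), against 3536 for Fraction 5 (31.4%). Libraries of Fraction 3 and LZ did not overlap for 15.1% of genes, 6.88% higher and 8.18% lower in Fraction 3. The 2 comparisons share the LZ libraries. In each, the sterol list had median log2 changes of -0.90 in Fraction 5 and 0.11 in Fraction 3, and the replication list -0.89 and 0.09. For ribosome biogenesis the medians were -0.94 and -0.30, and Myc, at 25.1, 26.9 and 21.1 FPKM in Fraction 3, lay between LZ and Fraction 5 but did not pass against LZ (log2 change -0.52, adjusted p = 0.18).

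Genes that did not pass may still differ between Fraction 3 and LZ. Gpr183, Ccr6 and Shmt1 had log2 changes of -0.71, -0.55 and -0.71 in Fraction 3 against LZ, without overlap, and did not pass (adjusted p = 0.0815, 0.178 and 0.092). The 13 genes that passed as lower in Fraction 3 are described next. Ccnd2, a D cyclin induced by mitogenic signals, was at 2.16, 2.42 and 1.79 FPKM in Fraction 3 against 10.4, 8.53 and 8.98 FPKM in LZ (log2 change -1.72, adjusted p = 0.000389). With 6.25, 8.13 and 4.55 FPKM, Fraction 5 was lower than LZ (log2 change -0.52 ± 0.15 (SE), adjusted p = 0.0195), yet each of its libraries was above each Fraction 3 library. That fall against LZ was not called without LZ library 1 (adjusted p = 0.0756) or without Fraction 5 library 3 (0.0845). The activation and plasma cell factor Irf4 was at 3.94, 4.07 and 4.08 FPKM in Fraction 3, 4.99, 5.01 and 4.65 FPKM in Fraction 5 and 8.8, 7.14 and 6.05 FPKM in LZ, so Fraction 5 was again between the other 2. Fraction 5 against Fraction 3 was not tested here.

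Batf was at 19.7, 22.4 and 20.3 FPKM in Fraction 3 (adjusted p = 0.0106 against LZ) and Tnfrsf8 at 2.07, 0.997 and 0.986 FPKM (adjusted p = 0.0228), ranges that overlap those of Fraction 5. The anti-apoptotic paralogs Bcl2a1a, Bcl2a1b and Bcl2a1d were lower in Fraction 3 than in LZ, with log2 changes of -0.75, -0.65 and -0.88; they are near-identical copies whose reads may have been split among them. Arid5a, Plscr1, Pml, Rrp15 and Snora52 were also among the 13, and Qrsl1 was the 1 gene higher. Leaving out each LZ or Fraction 3 library in turn kept Bcl2a1a, Bcl2a1d and Ccnd2 called in all 6 fits; 4 genes in all were called without LZ library 1 or without Fraction 3 library 3, 5 without LZ library 2 and 8 without Fraction 3 library 2.

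**Figure D5:**
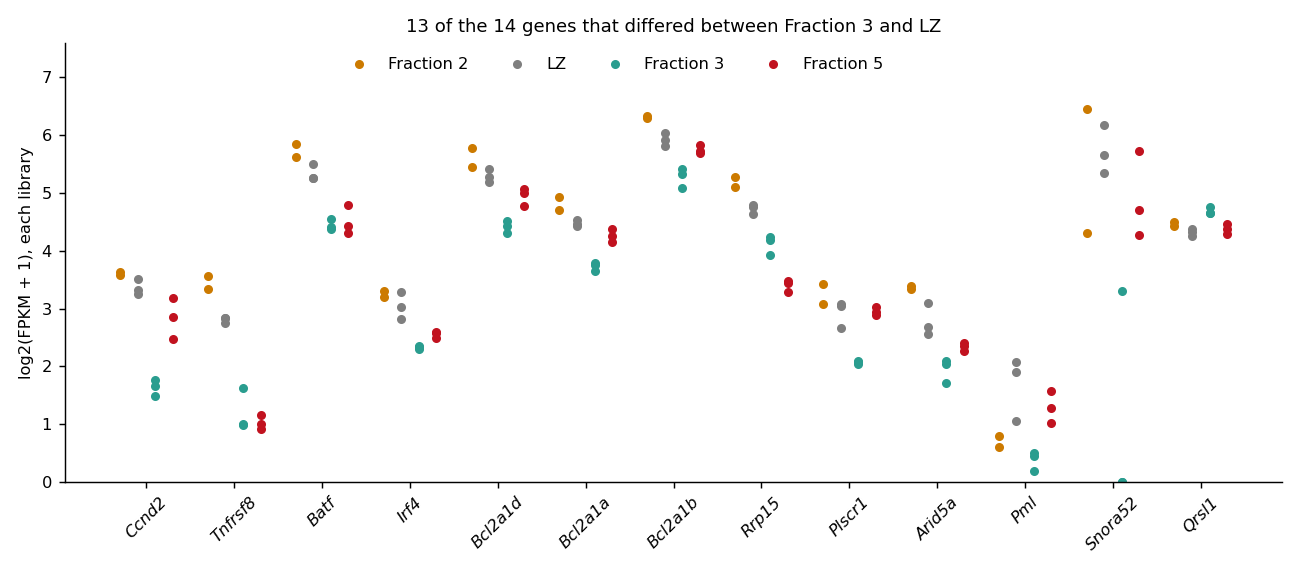
Each dot is 1 library, with log2(FPKM + 1) on the y axis, for 13 of the 14 genes that differed between Fraction 3 and LZ, shown in Fraction 2, LZ, Fraction 3 and Fraction 5. For Ccnd2 the Fraction 5 dots lie between LZ and Fraction 3, whereas for Batf and Tnfrsf8 they overlap Fraction 3.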

How the data were processed

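RNA was sequenced from pooled, sorted spleen B cells, 16 libraries in 6 gates. The deposited values are FPKM per gene, made by the authors with TopHat2 2.0.8 and Cufflinks 2.1.1 on mm9, per the submitters' processing notes. The library kit named in the labels does not mark strand, so overlapping and antisense genes cannot be told apart. The table holds 23234 named genes; 1 row without a name was left out.

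Here, log2(FPKM + 1) was tested with limma 3.58.1 in R 4.3.3 (variance trend, 1 model of 6 groups over 16 libraries, which share 1 estimate of the spread) on the 11266 genes that reached 1 FPKM in 2 or more libraries, and p-values were adjusted by Benjamini-Hochberg over all of them, with a threshold of 0.05. Changes are on the log2(FPKM + 1) scale, which understates those of low genes. Fold values are ratios of mean FPKM. Depth in reads is unknown, which leaves low genes without a counting error. On simulated data for Fraction 5 against LZ (11266 genes), 100 genes were changed by 0.5 and 100 by 1 on the log2 scale. All of them had a mean log2(FPKM + 1) above that of 5 FPKM. The noise was normal and independent, with the variances of the fit. Of the changed genes, 66% and 96% were recovered, and 4 unchanged genes were called. Recovery of lower genes and effects of batch or scaling were not simulated.

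The genes named are the 12 largest rises and 12 largest falls whose groups did not overlap and whose higher group averaged 5 FPKM or more, up to 4 members of each list with the smallest adjusted p in the direction of the list's median, the sort genes and a fixed panel, up to 2 markers of each other cell type, and others said to be chosen after their values were seen; single members given with a list's count, in the sterol and metabolic lists, the mTORC1 list, the promoters and the genes lower in Fraction 3, are of that kind too. The comparison, the 38 gene lists and the panel were chosen with earlier results of these data known. Alternatives were a replicate block, array weights, a fit to the groups compared alone, each library left out, 2 scalings (by quantiles and by median ratios), a pseudocount of 0.1, and a filter of 5 FPKM or none. Counts of lists without the genes of the gates were added after the values were seen. Some genes that meet these rules are not reported here. Promoters came from RefSeq (GRCm38.p6). Figures were drawn with matplotlib 3.10.9 in Python 3.11.15.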

Additional observations from a re-analysis of the deposited data

How the results depend on the processing

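Over all genes, the number higher in Fraction 5 than in LZ moved most with scaling: quantile normalization gave 2022 genes higher and median-ratio scaling 1756, against 1167, and the number lower stayed within 1.5 times of 2369 in every setting. Leaving out 1 library gave 838 to 965 higher and 1814 to 2279 lower, and the 1814, without Fraction 5 library 1, was the lowest of all settings. For Fraction 3 against LZ, 14 genes became 5 (4 lower) with no filter and 4 (2 higher, 2 lower) in the fit to the groups compared alone; leaving out 1 library gave 4 to 18 genes, of which 0 to 1 were higher and 4 to 18 lower. Replicate numbers are shared between the groups, but same-numbered libraries of Fraction 5 and LZ did not deviate together (correlations of -0.019, 0.022 and 0.063), so they were not treated as pairs; with the replicate block, 1281 genes were higher and 2463 lower in Fraction 5, and Fraction 3 against LZ had 0 higher and 15 lower. Among the genes named, Bak1 and Mvk were not called with the block (adjusted p = 0.0546 and 0.0534). Of 298 genes named or listed with a test, 224 passed, 47 of these lost the threshold in at least 1 alternative (44 on leaving out a library), 27 others gained it and 0 reversed. The read number behind the FPKM values is unknown, so low genes such as Cxcr3, Bhlhe41 and Prdm1 have unknown counting error. The cause of these differences between settings was not tested.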
